A study of Homo sapiens with 16 samples.

Results

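The 40 genes described here encode enzymes that add methyl groups to histone lysines (29 methyltransferases, or writers) or take them off (11 demethylases, or erasers). They were taken from a list of gene symbols and matched to the Ensembl identifiers that both deposited count tables hold. They are 40 of 60676 genes listed and 40 of 21569 genes with enough counts to test. Every library held between 363 counts (KDM7A) and 10147 counts (KMT2C) for each of them, so all 40 passed the low-count filter in every set of libraries. By the residue they act on, they comprise 8 writers and 4 erasers of H3K4, 7 writers of H3K9, 2 writers and 2 erasers of H3K27, 6 writers and 2 erasers of H3K36, 3 erasers of both H3K9 and H3K36, the H3K79 writer DOT1L, 3 writers of H4K20, and SMYD3 and SMYD5.

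Histone lysine methyltransferases take the methyl group from S-adenosylmethionine, which cells make from methionine. KDM1A and KDM1B remove it by FAD-dependent oxidation, whereas the Jumonji-type demethylases use iron, oxygen and 2-oxoglutarate. Methylation of H3K4 marks promoters and enhancers, H3K36 and H3K79 methylation marks transcribed genes, and methylation of H3K9 and H3K27 is tied to silent chromatin. H4K20 methylation is linked to replication, chromosome condensation and heterochromatin.

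RNA was sequenced from total RNA of 2 established human melanoma lines, with 8 libraries per line. A101D is labelled as methionine dependent, and MeWo as methionine independent (homocysteine can stand in for methionine in its medium). Both lines grew in DMEM lacking methionine and cystine, to which dialysed serum, glutamine, pyruvate, antibiotics and 150 µM cystine were added, and which held either 200 µM methionine (control medium) or 200 µM homocysteine. The labels give each library its line and a replicate number from 1 to 8, but not its medium. Libraries are described here by line and by the replicate sets 1-4 and 5-8. What separates these sets is not labelled, and the split was known from earlier results of these data, so p-values between sets measure a difference against the spread within sets of 4 libraries and not the effect of a labelled treatment. The libraries are not stated to come from separate cultures, and the p-values then measure only the spread between these samples, which may be technical. A difference between the lines is one between these 2 lines and not between classes of melanoma.

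Total counts ran from 28910881 to 38961862 per library. Mitochondrial genes took 1.71% to 1.92% of the counts in A101D replicates 1-4, 1.93% to 2.33% in A101D replicates 5-8 and 1.28% to 1.45% in MeWo. In A101D, 31281 to 33107 genes had a count in replicates 1-4 and 34020 to 34607 in replicates 5-8, so neither measure overlapped between the A101D sets, and their part in the results below was not tested. MeWo replicate 2 stood apart, with 34471 genes detected, and the other MeWo libraries had 30066 to 31433. The melanocyte factor SOX10 reached 352 to 409 CPM (counts scaled to the size of the library, in parts per 1000000) in A101D and 432 to 483 in MeWo. TYR, the melanin-forming tyrosinase, reached 1.10 to 1.74 CPM in A101D and 284 to 320.1 in MeWo. Of the 7 melanocyte markers, MITF, SOX10, PMEL, MLANA and TYR were higher and DCT and S100B lower in MeWo than in A101D. In A101D replicates 5-8 the list had 5 members lower and 1 higher than in 1-4 (median -0.30), against 32.4% and 33.2% of all genes. Its summed level was 2874 to 3466 CPM in A101D replicates 1-4, 2497 to 2745 CPM in A101D replicates 5-8 and 8208 to 9076 CPM in MeWo. The blood markers PTPRC, CD3E, CD79A and HBB summed to at most 0.549 CPM in any library, and HBB had no count. The endothelial markers PECAM1, CDH5 and VWF summed to 3.74 to 4.80 CPM in A101D replicates 1-4, to 15.2 to 19.7 CPM in A101D replicates 5-8 and to at most 1.99 CPM in MeWo. The 5 fibroblast markers summed to 917 to 1031 CPM in A101D replicates 1-4, 577 to 647 CPM in A101D replicates 5-8 and 76.3 to 86.1 CPM in MeWo. Collagen COL1A2 made up most of it in A101D (915 to 1029 and 575 to 643 CPM, at most 0.633 in MeWo) and LUM in MeWo (68.7 to 79.2 CPM, at most 2.45 in A101D), while COL1A1 was at most 2.61 CPM in any library. In A101D replicates 5-8, 3 of these 5 genes were higher and 1 lower (33.2% and 32.4% of all genes). Their median log2 difference was 0.66, with COL3A1 and DCN at most 0.422 and 0.237 CPM in A101D. Over all libraries, 4 were higher and 1 lower in MeWo than in A101D (37.5% and 41.0% of all genes). The keratinocyte markers summed to 33.9 to 36.7 CPM and 39.2 to 42.4 CPM in the A101D sets and 19.4 to 25.0 CPM in MeWo, nearly all of it KRT10, and KRT1 had no count in A101D. The part of these lists in the results below was not tested. Of 12 proliferation markers all 12 were lower in A101D replicates 5-8 than in 1-4, against 32.4% of all genes. Their median log2 difference was -2.28, with the largest falls in RRM2 (-3.60 ± 0.06), AURKB (-2.97 ± 0.07) and CCNA2 (-2.96 ± 0.06). Their summed level was 1277 to 1337 CPM in A101D replicates 1-4, 285 to 301 CPM in A101D replicates 5-8, 2178 to 2248 CPM in MeWo replicates 1-4 and 2149.8 to 2211 CPM in MeWo replicates 5-8. In MeWo 5 of the 12 were lower and 0 higher in replicates 5-8 (median -0.05), against 7.45% and 6.16% of all genes. This list moved between the same sets as the members described below for A101D, and its part in their results was not tested.

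Promoter sequences are shown for 6 members. They are RefSeq windows (GRCh38.p14) of 300 bases, 250 before and 50 after the start, written 5′ to 3′ on the gene's strand. EZH2, NSD2, KDM1B and SUV39H1 were lower in A101D replicates 5-8 than in 1-4, and KDM7A and EZH1 were higher. Capitals mark matches, on either strand, to the E2F-type motifs TTTCGCGC, TTTGGCGC and TTTCCCGC, to TTTGAA (the core of the CHR element of cell-cycle genes) and to CCAAT (the NF-Y box). EZH2 (window 1) is at chr7:148884242-148884541 on the minus strand, NSD2 at chr4:1871143-1871442 (plus), KDM1B at chr6:18155172-18155471 (plus), SUV39H1 (window 2) at chrX:48696484-48696783 (plus), KDM7A at chr7:140176934-140177233 (minus) and EZH1 at chr17:42744991-42745290 (minus).
EZH2: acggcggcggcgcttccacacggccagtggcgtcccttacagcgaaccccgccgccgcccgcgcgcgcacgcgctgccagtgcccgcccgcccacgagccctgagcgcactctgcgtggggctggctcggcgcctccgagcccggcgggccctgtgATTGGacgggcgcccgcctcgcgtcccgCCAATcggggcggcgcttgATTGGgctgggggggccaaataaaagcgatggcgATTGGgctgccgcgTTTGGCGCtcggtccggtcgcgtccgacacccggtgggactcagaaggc
NSD2: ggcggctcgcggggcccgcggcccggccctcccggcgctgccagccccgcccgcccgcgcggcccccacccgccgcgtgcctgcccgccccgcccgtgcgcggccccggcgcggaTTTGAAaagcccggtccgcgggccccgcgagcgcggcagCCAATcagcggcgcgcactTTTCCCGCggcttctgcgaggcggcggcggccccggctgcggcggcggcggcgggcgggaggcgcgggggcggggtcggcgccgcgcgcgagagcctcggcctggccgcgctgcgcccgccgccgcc
KDM1B: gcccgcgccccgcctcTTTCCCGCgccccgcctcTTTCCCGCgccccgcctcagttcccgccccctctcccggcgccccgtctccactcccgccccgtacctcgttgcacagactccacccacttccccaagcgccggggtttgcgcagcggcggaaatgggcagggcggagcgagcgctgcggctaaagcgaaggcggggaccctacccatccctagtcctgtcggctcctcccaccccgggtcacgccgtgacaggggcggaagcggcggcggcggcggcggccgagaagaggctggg
SUV39H1: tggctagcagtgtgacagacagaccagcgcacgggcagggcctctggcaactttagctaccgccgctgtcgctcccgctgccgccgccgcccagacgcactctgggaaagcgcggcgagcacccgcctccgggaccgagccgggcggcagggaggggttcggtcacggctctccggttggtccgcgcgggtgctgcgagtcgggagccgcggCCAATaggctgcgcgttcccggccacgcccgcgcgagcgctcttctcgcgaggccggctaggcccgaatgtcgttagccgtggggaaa
KDM7A: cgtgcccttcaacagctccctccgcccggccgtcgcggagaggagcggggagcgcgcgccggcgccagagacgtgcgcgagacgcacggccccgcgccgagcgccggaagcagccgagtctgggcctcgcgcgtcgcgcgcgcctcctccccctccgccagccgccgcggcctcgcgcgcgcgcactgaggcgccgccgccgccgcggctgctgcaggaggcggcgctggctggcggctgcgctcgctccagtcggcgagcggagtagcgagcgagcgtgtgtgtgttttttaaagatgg
EZH1: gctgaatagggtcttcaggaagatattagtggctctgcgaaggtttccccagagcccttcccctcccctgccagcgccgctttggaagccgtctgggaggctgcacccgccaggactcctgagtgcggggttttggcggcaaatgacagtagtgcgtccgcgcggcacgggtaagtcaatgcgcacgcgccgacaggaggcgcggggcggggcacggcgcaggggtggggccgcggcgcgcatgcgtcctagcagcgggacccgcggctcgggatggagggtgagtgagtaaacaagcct

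The table of promoters held windows for 37 of the 40 members, 55 windows in all, with more than 1 for some genes. EZH2 held TTTGGCGC at bases 252 to 259 of its window, a word found in 0.652% of 35116 promoter windows, and 4 matches to CCAAT. NSD2 held TTTCCCGC at bases 174 to 181, which 1.63% of all windows hold, and also TTTGAA and CCAAT. KDM1B held TTTCCCGC at bases 17 to 24 and again at 35 to 42. An E2F-type word stood in 3 of 22 windows of the members that were lower in A101D replicates 5-8, in 0 of 22 windows of those that were higher and in 2.74% of all windows. CCAAT stood in 11 of 22 windows of the lower members, in 4 of 22 of the higher members, in 2 of 11 of those that did not pass the test and in 34.6% of all windows. Among 15 lower members with windows, only EZH2, NSD2 and KDM1B held an E2F-type word. All 3 are among the sequences shown. The fall of KDM1B (-0.23) was smaller than those of SUV39H2 (-0.98), KDM1A (-0.75) and SETDB2 (-0.69), whose windows held no E2F-type word. TTTGAA stood in 4 of 22 windows of the lower members, in 1 of 22 of the higher members and in 15.2% of all windows. The windows of KDM7A and EZH1 held none of these words, and SUV39H1 held a single CCAAT. By gene, CCAAT stood in 9 of 15 lower and 3 of 14 higher members with windows. Windows 3 and 4 of NSD1 overlap and hold the same match, which was counted in each. Within a window no match overlapped another, and a match describes letters only.

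Within A101D, 15 members were higher and 16 lower in replicates 5-8 than in replicates 1-4 (limma-voom, adjusted p under 0.05 over all 21569 genes). These 31 of 40 members (77.5%) stand against 65.6% of all genes tested, 33.2% higher and 32.4% lower. That share includes genes near the low-count limit, where no member lay. Of the 16406 genes kept at a 1 CPM minimum, 75.2% passed. The 2 sets of 4 libraries did not overlap for 28 members, as for 59.6% of all genes. Only EZH2, SUV39H1 and KDM7A changed at least 2-fold, 3 of 40 members against 16.6% of all genes. The median absolute log2 difference was 0.35 for the members and 0.41 for all genes tested. Here and below, 2-fold shares and median absolute differences of all genes also include genes near the low-count limit. They were not computed at a 1 CPM minimum. RNA from bulk cultures cannot tell fewer cells of a type from less RNA per cell, here and in every result below. With library totals in place of the trimmed-mean factors that scale the main values, 21 members were higher and 14 lower, and with upper-quartile factors 19 and 14. Library totals moved the median of all genes by 0.10 on the log2 scale.

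In MeWo, 4 members were higher and 3 lower in replicates 5-8 than in 1-4. These 7 of 40 (17.5%) stand against 13.6% of all genes (6.16% higher, 7.45% lower) and 19.2% of those kept at a 1 CPM minimum. The sets did not overlap for 12 members (16.6% of all genes), none of the 40 changed at least 2-fold (0.631% of all genes), and the median absolute log2 difference was 0.07 against 0.12 for all genes. EZH1, SETD2, SETDB2 and KDM1B were higher, and EZH2, KDM1A and SETD7 were lower. The split depended on scaling, with 3 higher and 6 lower by median-of-ratios factors and 6 higher and 3 lower by library totals or upper-quartile factors. Without MeWo replicate 1, 3, 4, 6 or 8 only 2 members were higher, and 6 were lower without MeWo replicate 4 and 5 without A101D replicate 8.

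The change between the replicate sets differed between the lines for 26 of 40 members (65.0%), against 49.1% of all genes. Among genes kept at a 1 CPM minimum the share was 60.1%. For 13 members the change in MeWo was the more positive (25.9% of all genes), and for 13 the change in A101D was (23.2%). EZH1 and SETD2 were higher and EZH2, KDM1A and SETD7 lower in both lines. KDM1B and SETDB2 were lower in A101D and higher in MeWo, a pattern of opposite signs that 1.86% of all genes had in either order. A further 13 members were higher and 11 lower in A101D without passing the test in MeWo, and 9 passed it in neither line.

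**Figure D1:**
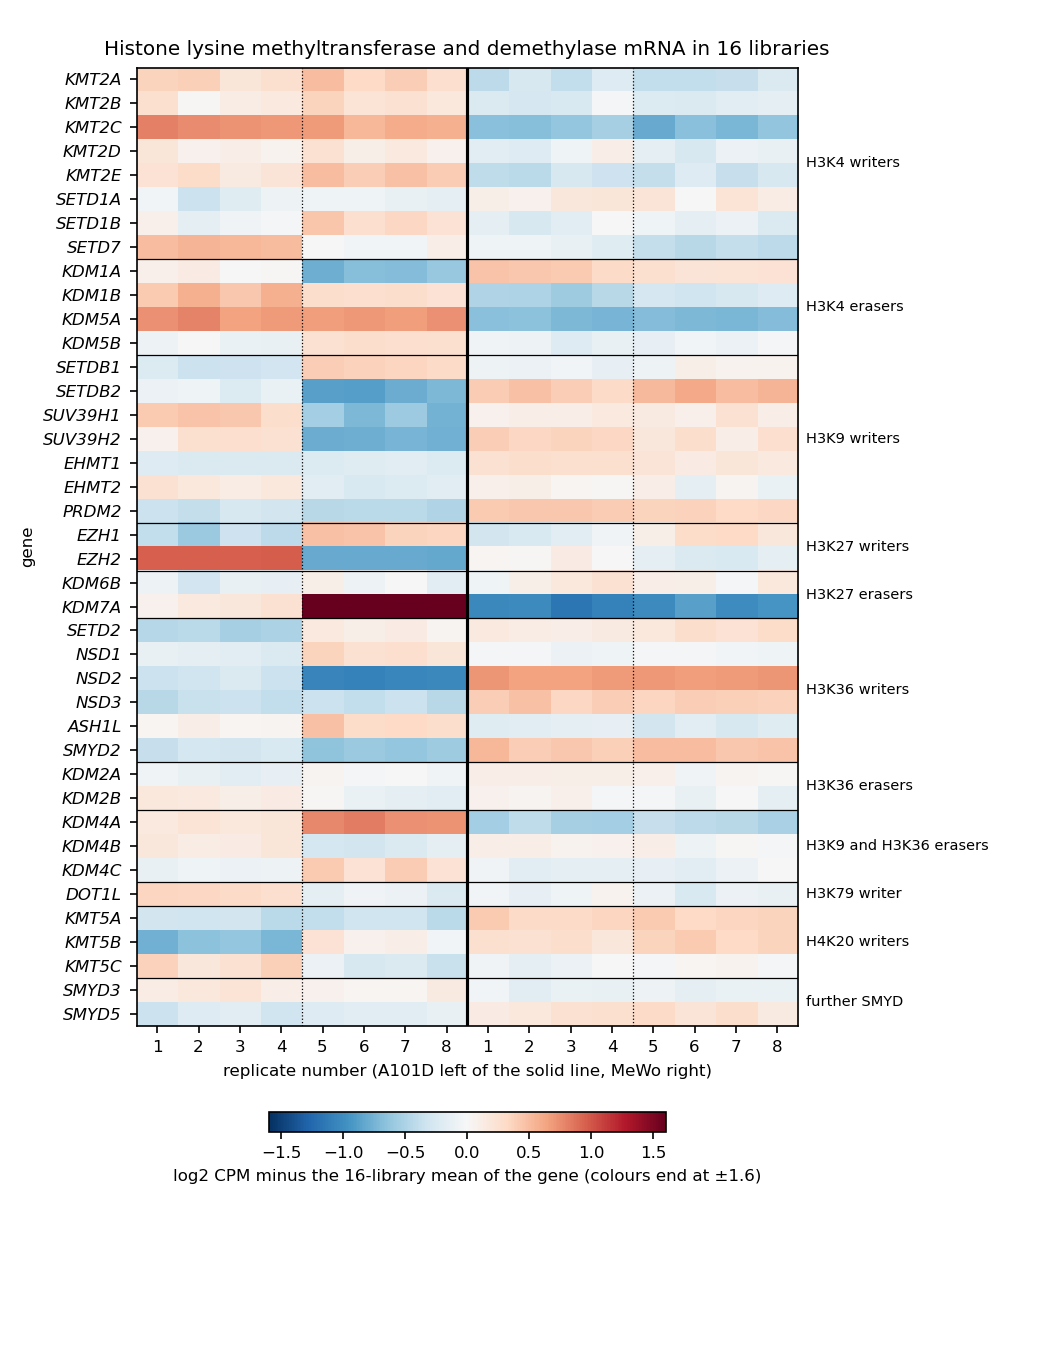
Level of each of the 40 genes (rows, grouped by residue) in the 16 libraries (columns), as log2 CPM minus the mean of that gene over all libraries; red is above the mean, blue below, and colours end at ±1.6. The A101D columns change between replicates 4 and 5 in many rows, most of all in EZH2 and KDM7A, and the MeWo columns differ less.

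**Figure D2:**
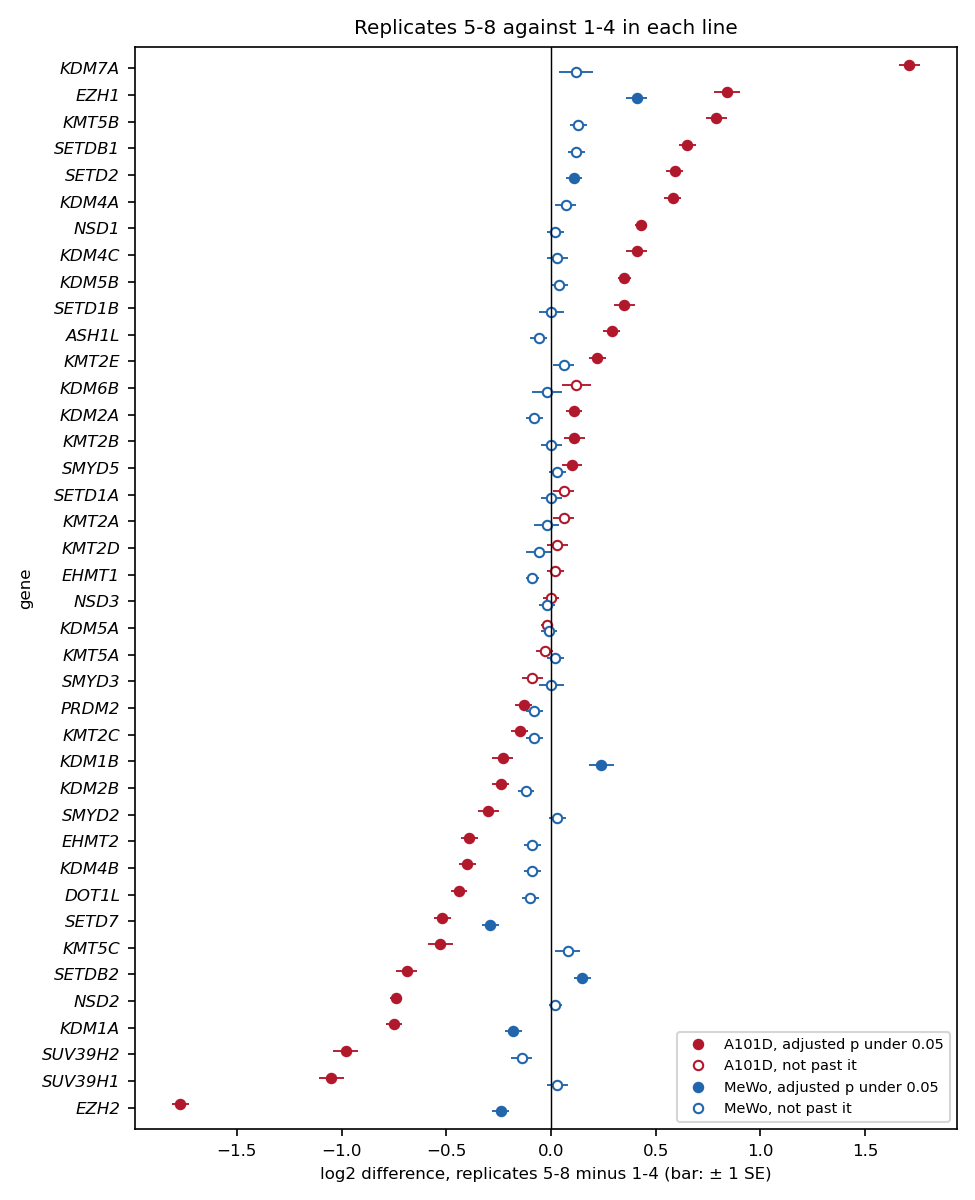
Log2 difference between replicates 5-8 and 1-4 (horizontal axis, with 1 SE) for each member in A101D (red) and MeWo (blue); filled points have an adjusted p under 0.05. A101D values run from -1.77 (EZH2) to 1.71 (KDM7A), and MeWo values from -0.29 (SETD7) to 0.41 (EZH1).

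The H3K27 writers EZH2 and EZH1 moved in opposite directions. EZH2 (chr7:148807383-148884321, minus strand), the main catalytic subunit of Polycomb repressive complex 2 (PRC2) in dividing cells, reached 84.5, 84.6, 84.4 and 85.2 CPM in A101D replicates 1 to 4 and 24.8, 24.8, 24.9 and 24.6 CPM in replicates 5 to 8. In MeWo it reached 44.4, 43.9, 47.5 and 43.3 CPM in replicates 1 to 4 and 39.2, 37.0, 36.7 and 38.9 CPM in replicates 5 to 8. The sets did not overlap in either line, and the A101D sets lay above and below all MeWo libraries. The log2 difference between sets was -1.77 ± 0.04 (SE) in A101D (adjusted p = 2.17e-31) and -0.24 ± 0.04 in MeWo (adjusted p = 6.95e-05), and these changes differed by 1.54 ± 0.06 (adjusted p = 6.09e-24).

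EZH1 (chr17:42700275-42745049, minus strand), the PRC2 subunit typical of cells that do not divide, reached 29.4, 25.5, 30.5 and 28.8 CPM in A101D replicates 1 to 4 and 53.4, 52.8, 49.1 and 49.0 CPM in replicates 5 to 8. MeWo replicates 1 to 4 held 31.4, 32.5, 34.3 and 37.0 CPM, and replicates 5 to 8 held 41.0, 47.1, 47.9 and 43.5 CPM. The later set was the higher in both lines, without overlap. The log2 difference was 0.84 ± 0.06 in A101D (adjusted p = 2.88e-16) and 0.41 ± 0.05 in MeWo (adjusted p = 1.35e-06), and the difference between them was -0.43 ± 0.08 (adjusted p = 1.27e-05). Within a library, EZH2 had 2.77 to 3.31 counts for each EZH1 count in A101D replicates 1-4 and 0.466 to 0.507 in A101D replicates 5-8. In MeWo the ratio was 1.17 to 1.42 in replicates 1-4 and 0.766 to 0.957 in replicates 5-8. These ratios compare counts, not levels per length, and do not depend on how libraries are scaled.

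Of 9 genes for partners of PRC2, 8 were lower and 1 higher in A101D replicates 5-8, against 32.4% and 33.2% of all genes. The median log2 difference was -0.40 for the list and 0.01 over all genes. PHF19, which brings PRC2 to chromatin, differed by -1.19 ± 0.04, the histone-binding subunit RBBP7 by -0.85 ± 0.04, and EED, which binds methylated H3K27, by -0.77 ± 0.05. JARID2 was the partner that was higher (0.24 ± 0.04). In MeWo 2 of the 9 were lower and 0 higher, against 7.45% and 6.16% of all genes.

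The largest rise of all members in A101D was that of KDM7A (chr7:140084746-140177035, minus strand), a Jumonji demethylase of H3K27 and H3K9. It reached 27.2, 28.7, 29.2 and 30.5 CPM in A101D replicates 1 to 4 and 102, 97.0, 96.6 and 82.9 CPM in replicates 5 to 8. MeWo held 12.6, 12.8, 11.6 and 12.2 CPM in replicates 1 to 4 and 12.8, 14.1, 12.9 and 13.4 CPM in replicates 5 to 8. The A101D sets were far apart, and every A101D library lay above every MeWo library. The log2 difference between sets was 1.71 ± 0.05 in A101D (adjusted p = 2.41e-27) and 0.12 ± 0.08 in MeWo (adjusted p = 0.391), and the changes differed by -1.59 ± 0.09 (adjusted p = 1.91e-17). KDM6B, an H3K27 demethylase induced in inflammation and differentiation, had 12.2 to 16.1 CPM over the A101D libraries and 14.4 to 17.9 CPM over the MeWo libraries and passed the test between sets in neither line.

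**Figure D3:**
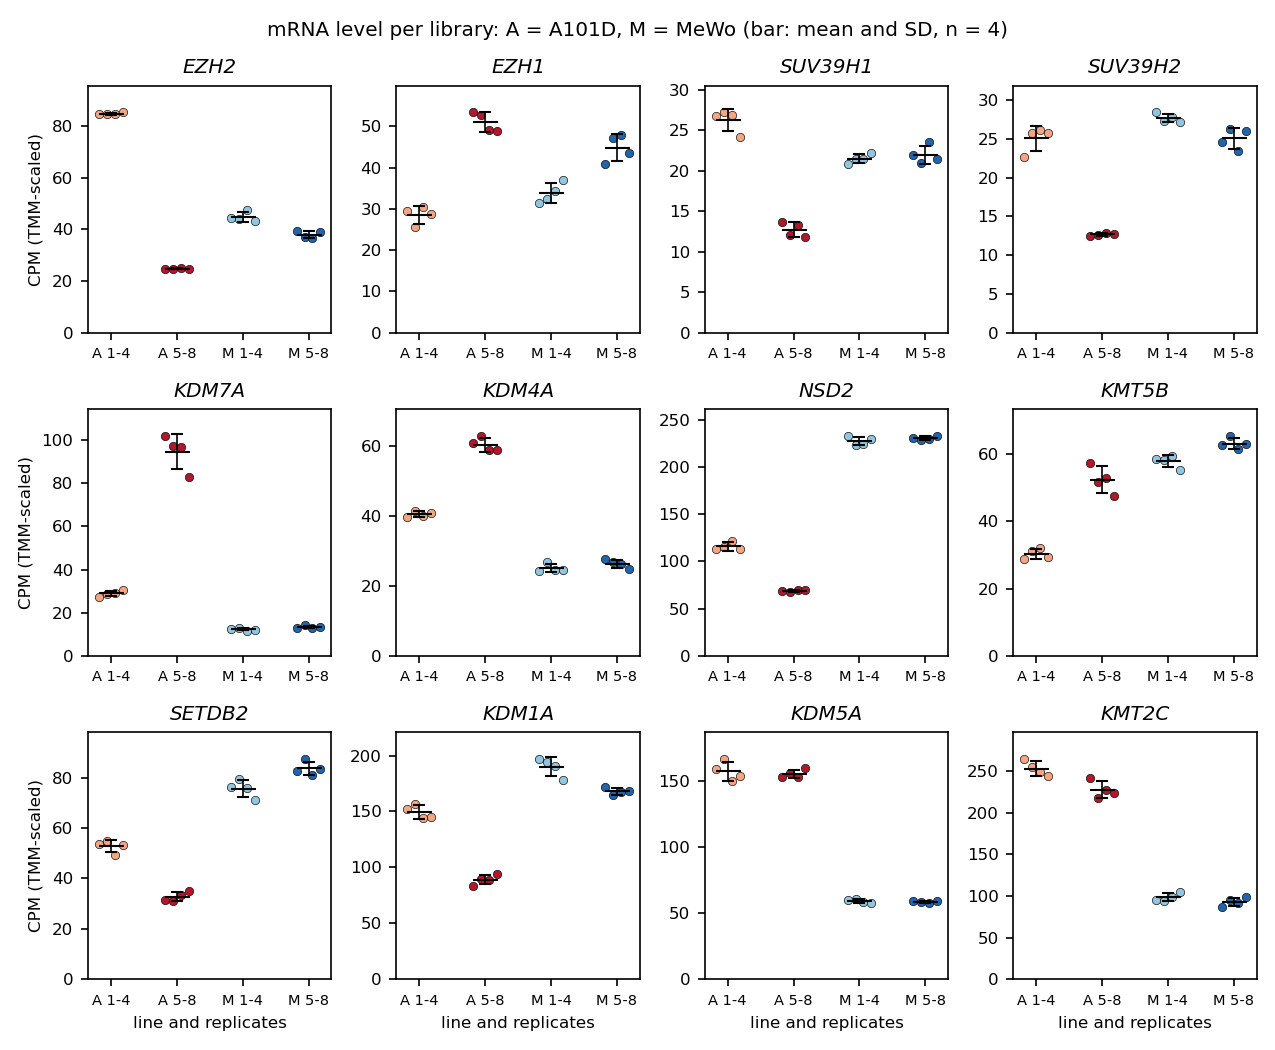
CPM (vertical axis, starting at 0) of 12 members in each library, by line and replicate set, with mean and SD of 4 libraries. EZH2, SUV39H1, SUV39H2, NSD2, SETDB2 and KDM1A are lower and EZH1, KDM7A, KDM4A and KMT5B higher in A101D replicates 5-8 than in 1-4, whereas KDM5A and KMT2C are separated mainly by line.

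Of the 7 H3K9 writers, 5 were lower in A101D replicates 5-8 and SETDB1 alone was higher (32.4% of all genes lower, 33.2% higher). SUV39H1 (chrX:48695554-48709012, plus strand), which trimethylates H3K9 in pericentric heterochromatin, reached 26.7, 27.2, 26.9 and 24.2 CPM in A101D replicates 1 to 4 and 13.7, 12.1, 13.3 and 11.8 CPM in replicates 5 to 8. In MeWo it reached 20.8, 21.4, 21.5 and 22.2 CPM and then 22.0, 21.0, 23.5 and 21.4 CPM. The A101D sets enclosed the MeWo libraries without overlap, and the MeWo sets overlapped each other. SUV39H1 differed between sets by -1.05 ± 0.06 in A101D (adjusted p = 8.69e-19) and by 0.03 ± 0.05 in MeWo (adjusted p = 0.803).

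SUV39H2 (chr10:14878820-14904315, plus strand), its close relative, reached 22.7, 25.8, 26.1 and 25.7 CPM in A101D replicates 1 to 4 and 12.5, 12.6, 12.9 and 12.7 CPM in replicates 5 to 8. MeWo held 28.4, 27.3, 27.8 and 27.2 CPM in replicates 1 to 4 and 24.6, 26.3, 23.4 and 26.0 CPM in replicates 5 to 8. The later set was the lower in both lines, without overlap. The difference was -0.98 ± 0.06 in A101D (adjusted p = 5.30e-18) and -0.14 ± 0.05 in MeWo (adjusted p = 0.0562). The changes in the 2 lines differed by 1.08 ± 0.08 for SUV39H1 and by 0.84 ± 0.08 for SUV39H2 (adjusted p = 1.45e-14 and 4.61e-12). SUV39H1 had 0.943 to 1.18 counts per SUV39H2 count in A101D replicates 1-4 and 0.935 to 1.10 in replicates 5-8, so their ratio overlapped between sets in which both levels fell.

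SETDB2 (chr13:49444374-49495003, plus strand), an H3K9 methyltransferase related to SETDB1, moved in opposite directions in the lines. It reached 53.7, 55.0, 49.4 and 53.2 CPM in A101D replicates 1 to 4 and 31.5, 31.2, 33.3 and 35.0 CPM in replicates 5 to 8. MeWo held 76.2, 79.5, 75.8 and 71.1 CPM and then 82.6, 87.5, 81.2 and 83.5 CPM. The sets did not overlap in either line. SETDB2 differed by -0.69 ± 0.05 in A101D (adjusted p = 1.97e-16) and by 0.15 ± 0.04 in MeWo (adjusted p = 0.0108), with a difference between the lines of 0.84 ± 0.06 (adjusted p = 9.04e-15). The call in MeWo was lost when MeWo replicate 1, 3, 4, 6 or 8 was left out, where the difference was 0.09 to 0.14.

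SETDB1, which acts with TRIM28 at retroelements and zinc-finger targets, ranged from 36.5 to 39.9 CPM in A101D replicates 1-4 and from 57.4 to 60.9 CPM in replicates 5-8. It rose by 0.65 ± 0.04 on the log2 scale there (adjusted p = 7.81e-17) and differed by 0.12 ± 0.04 in MeWo (adjusted p = 0.0639). EHMT2 (G9a), which mono- and dimethylates H3K9 in euchromatin, fell from 91.8 to 100.0 CPM down to 71.0 to 74.7 CPM in A101D, whereas its partner EHMT1 stayed between 50.6 and 52.3 CPM and passed no test between sets. PRDM2 was lower by a small amount (43.2 to 47.2 CPM and 40.3 to 41.8 CPM, log2 difference -0.13 ± 0.04, adjusted p = 0.0044), and this call was lost with library totals (-0.03), with upper-quartile factors (-0.05) and without A101D replicate 8 (-0.10).

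Among 10 partners and readers of H3K9 methylation, 4 were lower and 2 higher in A101D replicates 5-8, against 32.4% and 33.2% of all genes. The heterochromatin protein CBX3 differed by -1.17 ± 0.04, TRIM28 by -1.14 ± 0.04 and CBX1 by -0.75 ± 0.04, and the list's median was -0.06. Their relative CBX5 went the other way, from 158 to 176 CPM in replicates 1-4 to 178 to 191 CPM in replicates 5-8. SETDB1 and its cofactor TRIM28 had opposite signs in these A101D libraries. In MeWo 2 of the 10 were lower (7.45% of all genes).

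Of the 8 H3K4 writers, 5 passed the test between sets in A101D and 1 in MeWo, against 65.6% and 13.6% of all genes. In A101D 3 were higher (SETD1B 0.35 ± 0.05, KMT2E 0.22 ± 0.04 and KMT2B 0.11 ± 0.05) and 2 lower (SETD7 -0.52 ± 0.04 and KMT2C -0.15 ± 0.04). KMT2B, KMT2C and SETD1B belong to the COMPASS-type complexes, and KMT2E is a SET protein whose own catalytic activity is uncertain. The KMT2B call (adjusted p = 0.049) was lost in 8 of the refits, for example without A101D replicate 2 (0.07), and the KMT2C call was lost with library totals (-0.05) and upper-quartile factors (-0.08). KMT2A, KMT2D and SETD1A did not pass the test in A101D. SETD7, a monomethyltransferase of H3K4 and of many other proteins, was lower in both lines. It ranged from 126 to 130.2 CPM in A101D replicates 1-4 and from 86.5 to 96.0 CPM in replicates 5-8, and from 78.4 to 85.3 and 65.7 to 68.9 CPM in MeWo, where its difference of -0.29 ± 0.04 (adjusted p = 8.98e-07) was the largest fall of any member.

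KMT2C (chr7:152134922-152436005, minus strand), the enhancer H3K4 monomethyltransferase also called MLL3, was set apart by line. It reached 265, 255, 249 and 244 CPM in A101D replicates 1 to 4, 242, 218, 228 and 224 CPM in A101D replicates 5 to 8, 95.4, 94.4, 98.8 and 105 CPM in MeWo replicates 1 to 4 and 87.0, 95.3, 91.4 and 98.2 CPM in MeWo replicates 5 to 8. No library of one line came near the other line. MeWo minus A101D was -1.37 ± 0.04 in replicates 1-4 and -1.29 ± 0.04 in replicates 5-8 (adjusted p = 5.06e-29 and 2.33e-28), and the 2 differences were 0.07 ± 0.06 apart (adjusted p = 0.284). KMT2C shares near-identical sequence with copies elsewhere in the genome, so reads of those copies may be counted with it or its own lost.

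Of the 12 partners in COMPASS-type complexes, 10 were lower and 2 higher in A101D replicates 5-8, with a median of -0.33. PAXIP1, a subunit of the KMT2C and KMT2D complexes, differed by -1.06 ± 0.04, the core subunit ASH2L by -0.69 ± 0.05 and the SETD1 partner WDR82 by -0.59 ± 0.04. RBBP5 was higher (48.5 to 50.3 CPM in replicates 1-4 and 54.5 to 56.7 CPM in replicates 5-8). So was NCOA6 (43.1 to 47.9 and 53.0 to 56.3 CPM). Over all genes tested, 32.4% were lower and 33.2% higher. Of the catalytic subunits, SETD1B and KMT2B were higher and KMT2C lower in the same comparison. In MeWo 1 of the 12 was lower (7.45% of all genes).

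The H3K4 erasers differed among themselves. KDM1A (LSD1; chr1:23019443-23083689, plus strand), a flavin-dependent demethylase that works with CoREST and histone deacetylases, reached 152, 157, 144 and 145 CPM in A101D replicates 1 to 4 and 83.6, 89.3, 89.0 and 94.2 CPM in replicates 5 to 8. In MeWo it reached 197, 194, 191 and 178 CPM and then 172, 165, 167 and 168 CPM. The sets did not overlap in either line, with the later set lower in both. The log2 difference was -0.75 ± 0.04 in A101D (adjusted p = 4.36e-20) and -0.18 ± 0.04 in MeWo (adjusted p = 6.15e-04), 0.57 ± 0.05 apart (adjusted p = 4.81e-12). Of its 8 listed partners, 5 were lower and 2 higher in A101D replicates 5-8, against 32.4% and 33.2% of all genes. HDAC2 (-0.66 ± 0.04) and HDAC1 (-0.53 ± 0.03) were among the lower ones, and the list's median was -0.28. RCOR2 differed by -1.24 ± 0.34 at a level near 0, with 68 counts over the 4 libraries of the first set and 31 over those of the second.

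KDM1B (LSD2; chr6:18155329-18223853, plus strand), the other flavin-dependent eraser, reached 29, 32.1, 29.3 and 32.2 CPM in A101D replicates 1 to 4 and 26.4, 26.2, 26.5 and 25.4 CPM in replicates 5 to 8. MeWo held 15.5, 15.4, 14.6 and 15.9 CPM and then 18.1, 17.4, 18.2 and 18.8 CPM. It was thus lower in the later set of A101D and higher in the later set of MeWo, without overlap. The differences were -0.23 ± 0.05 in A101D (adjusted p = 4.98e-05) and 0.24 ± 0.06 in MeWo (adjusted p = 0.00296), and they were 0.47 ± 0.07 apart (adjusted p = 1.05e-06).

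KDM5A (chr12:280129-389454, minus strand), a Jumonji demethylase of trimethylated H3K4 first described as a partner of the retinoblastoma protein, reached 159, 167, 150.0 and 154 CPM in A101D replicates 1 to 4 and 153, 156, 153 and 159.9 CPM in replicates 5 to 8. MeWo held 60.2, 60.9, 58.4 and 57.5 CPM and then 59.2, 58.6, 57.8 and 59.3 CPM. The sets overlapped within each line and the lines did not. MeWo minus A101D was -1.41 ± 0.04 in both sets (adjusted p = 1.25e-30 in replicates 1-4 and 5.98e-31 in replicates 5-8). In A101D KDM5A differed between sets by -0.02 ± 0.03 (adjusted p = 0.692), a value that turned to 0.09 with library totals (adjusted p = 0.00903). Its relative KDM5B rose by 0.35 ± 0.03 on the log2 scale in A101D, from 133 to 144 CPM up to 172 to 176 CPM, and ranged from 126 to 142 CPM over all MeWo libraries.

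Of the 6 H3K36 writers, NSD2 and SMYD2 were lower and SETD2, NSD1 and ASH1L higher in A101D replicates 5-8. NSD2 (chr4:1871424-1982207, plus strand), which dimethylates H3K36, reached 113, 115, 122 and 113 CPM in A101D replicates 1 to 4 and 68.8, 67.7, 69.2 and 70.2 CPM in replicates 5 to 8. MeWo held 233, 223, 224 and 229 CPM and then 231, 228, 229 and 233 CPM. The A101D sets were apart, the MeWo sets overlapped, and all MeWo libraries were above all A101D libraries. The log2 difference between sets was -0.74 ± 0.03 in A101D (adjusted p = 1.86e-21), and the change in MeWo was 0.76 ± 0.05 more positive (adjusted p = 2.16e-17).

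NSD1 (chr5:177133025-177300215, plus strand), which catalyses the same step, reached 124, 121, 119 and 115 CPM in A101D replicates 1 to 4 and 172, 159.9, 162 and 154 CPM in replicates 5 to 8, and between 126 and 133 CPM in every MeWo library. It rose by 0.43 ± 0.03 on the log2 scale in A101D (adjusted p = 3.43e-14), while NSD2 fell. The ratio of NSD2 to NSD1 counts was 0.914 to 1.02 in A101D replicates 1-4, 0.401 to 0.456 in A101D replicates 5-8, 1.68 to 1.77 in MeWo replicates 1-4 and 1.72 to 1.80 in MeWo replicates 5-8. NSD3, the third member of the family, ranged from 64.8 to 69.8 CPM over both A101D sets and passed no test between sets.

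SETD2, which trimethylates H3K36, ranged from 56.7 to 60.7 CPM in A101D replicates 1-4 and from 84.3 to 91.4 CPM in replicates 5-8, a log2 difference of 0.59 ± 0.04 (adjusted p = 8.48e-17). In MeWo it differed by 0.11 ± 0.04 (adjusted p = 0.0388), a call that was lost in 12 refits, among them those without each of MeWo replicates 1, 2, 3, 4, 6, 7 and 8 (0.08 to 0.11). ASH1L, a dimethyltransferase of H3K36, rose by 0.29 ± 0.04 on the log2 scale in A101D, and SMYD2, which also methylates p53, fell by 0.30 ± 0.05. ASH1L replicate 5 of A101D was high, at 156.0 CPM against 137.0 to 140.1 in replicates 6 to 8.

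Of the erasers of H3K36 alone, KDM2A was higher by 0.11 ± 0.04 and KDM2B lower by 0.24 ± 0.04 on the log2 scale in A101D replicates 5-8, and neither passed the test in MeWo. Of the KDM4 enzymes, which remove methyl groups from both H3K9 and H3K36, KDM4A (chr1:43650158-43705515, plus strand) reached 39.7, 41.6, 40 and 40.9 CPM in A101D replicates 1 to 4 and 61.0, 63.1, 59.0 and 58.9 CPM in replicates 5 to 8. MeWo held 24.4, 26.9, 24.6 and 24.5 CPM and then 27.7, 26.8, 26.2 and 24.8 CPM. All A101D libraries were above all MeWo libraries. KDM4A rose by 0.58 ± 0.04 on the log2 scale in A101D (adjusted p = 1.03e-15) and the change in MeWo was lower by 0.51 (interaction -0.51 ± 0.06, adjusted p = 1.21e-08). KDM4C rose as well (0.41 ± 0.05) and KDM4B fell (-0.40 ± 0.04), so the 3 relatives did not move as one.

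DOT1L, the sole known H3K79 methyltransferase, ranged from 70.7 to 74.5 CPM in A101D replicates 1-4 and from 49.8 to 56.3 CPM in replicates 5-8, and from 49.3 to 61.1 CPM in MeWo. It fell by 0.44 ± 0.04 on the log2 scale in A101D (adjusted p = 9.49e-12). Of 6 listed partners in elongation complexes, MLLT3 (-0.70 ± 0.06) and MLLT6 (-0.49 ± 0.04) were lower, AFF4 (0.50 ± 0.03) was higher and 3 did not pass the test. Over all genes 65.6% passed it.

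The 3 H4K20 writers took different directions. KMT5B (chr11:68154863-68213828, minus strand), which di- and trimethylates H4K20, reached 28.7, 31.0, 31.9 and 29.4 CPM in A101D replicates 1 to 4 and 57.4, 51.5, 52.9 and 47.6 CPM in replicates 5 to 8. MeWo held 58.4, 58.2, 59.4 and 55.3 CPM and then 62.6, 65.4, 61.3 and 62.9 CPM. The later set was higher in both lines without overlap, and in A101D the step was the larger. The log2 difference was 0.79 ± 0.05 in A101D (adjusted p = 1.38e-17) and 0.13 ± 0.04 in MeWo (adjusted p = 0.0514), -0.67 ± 0.07 apart (adjusted p = 2.81e-11).

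KMT5C, the other enzyme for di- and trimethylation, fell by 0.53 ± 0.06 in A101D (adjusted p = 1.48e-09), from 15.6 to 17.9 CPM down to 10.8 to 12.9 CPM. KMT5A (chr12:123383773-123409358, plus strand), the monomethyltransferase that supplies their substrate and whose protein cycles with cell division, reached 41.8, 41.0, 41.6 and 38.1 CPM in A101D replicates 1 to 4 and 38.8, 40.9, 40.9 and 38.1 CPM in replicates 5 to 8. These sets overlapped, with a difference of -0.03 ± 0.04 (adjusted p = 0.539) whose sign turned with library totals (0.07) and upper-quartile factors (0.05). KMT5A had 1.30 to 1.46 counts per KMT5B count in A101D replicates 1-4 and 0.676 to 0.802 in replicates 5-8, against 0.976 to 1.18 over the MeWo libraries. KMT5A has near-identical copies elsewhere in the genome, and its counts are uncertain for that reason. SMYD5 was higher by 0.10 ± 0.05 in A101D (adjusted p = 0.0441, lost in 6 refits), and SMYD3 did not pass the test in either line.

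**Figure D4:**
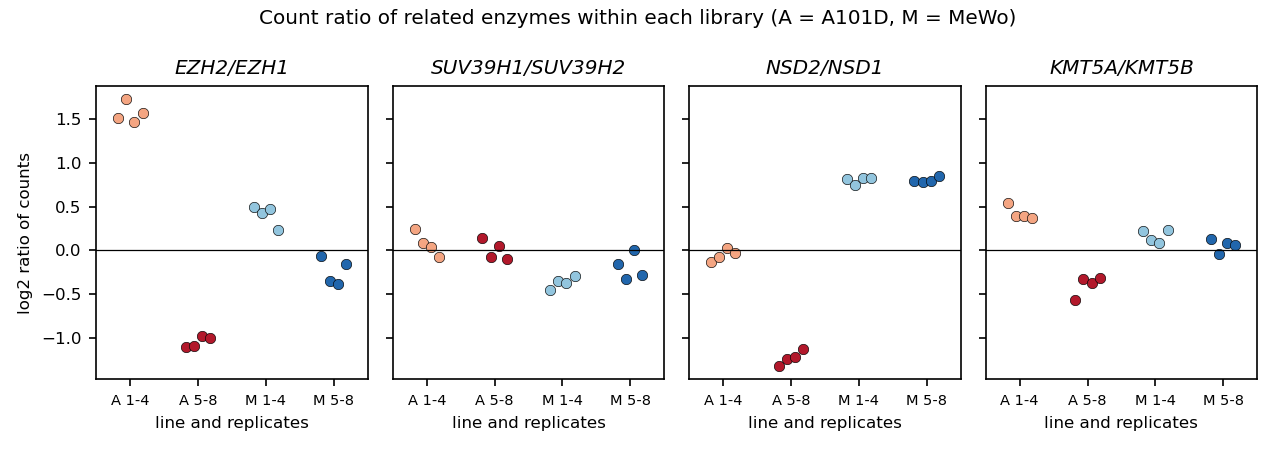
Log2 ratio of the counts of related enzymes within each library (vertical axis), by line and replicate set; 0 means equal counts. In A101D the ratios of EZH2 to EZH1, NSD2 to NSD1 and KMT5A to KMT5B are separated between sets without overlap, and the ratio of SUV39H1 to SUV39H2 is not.

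Of 11 further demethylases outside the 40, 6 were higher and 2 lower in A101D replicates 5-8, against 33.2% and 32.4% of all genes. Their median was 0.10. The reader-demethylase PHF2 (-0.59 ± 0.06) and KDM8 (-0.53 ± 0.16) were lower, and the H3K9 demethylase KDM3A (0.34 ± 0.04) was higher. In MeWo 0 of the 11 passed the test by limma-voom (13.6% of all genes).

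Between the lines, over all 8 libraries each, 15 members were higher and 15 lower in MeWo than in A101D, 30 of 40 (75.0%) against 78.5% of all genes (37.5% higher, 41.0% lower). Among genes kept at a 1 CPM minimum, 82.2% passed. The lines did not overlap for 21 members (55.2% of all genes), and 4 members differed at least 2-fold (39.7% of all genes). The median absolute log2 difference was 0.39 for the members and 0.76 for all genes tested. The 2-fold share and this median of all genes include genes near the low-count limit, where no member lay. Over both sets EZH2 (-0.14 ± 0.31, adjusted p = 0.682), EZH1 (0.02 ± 0.17, adjusted p = 0.9), SUV39H1 (0.26 ± 0.18, adjusted p = 0.2) and SETDB1 (-0.06 ± 0.12, adjusted p = 0.67) did not pass the test. This fit held the line only, so differences between the sets counted as spread. For EZH2 the SE of 0.31 stands against 0.04 in replicates 1-4 by the model with sets.

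Set by set, more members passed. In replicates 1-4, 18 members were higher and 17 lower in MeWo (87.5%, against 79.4% of all genes), with no overlap for 36 members (72.9% of all genes) and at least 2-fold differences for 3 (37.5% of all genes). In replicates 5-8, 18 were higher and 18 lower (90.0%, against 84.2%), again with no overlap for 36 members (79.2%) and at least 2-fold differences for 7 (44.7%). Among genes kept at a 1 CPM minimum, 86.6% passed in replicates 1-4 and 89.6% in replicates 5-8. The direction was the same in both sets for 13 members that were higher in MeWo and for 12 that were lower. These shares, 32.5% and 30% of the members, stand against 31.1% and 35.4% of all genes. For 7 members (17.5%) both calls were made with opposite signs, against 5.33% of all genes. EZH1, NSD1 and SETDB1 were higher in MeWo in replicates 1-4 and lower in replicates 5-8, and EHMT2, EZH2, KMT5C and SUV39H1 were lower in MeWo in replicates 1-4 and higher in replicates 5-8. For EHMT2 the first of these calls (-0.12 ± 0.04) was lost without MeWo replicate 1, 3, 4, 7 or 8, and for NSD1 (0.12 ± 0.04) it was lost without the low-count filter (0.09). SUV39H2, counted as higher in both sets, lost its call in replicates 1-4 (0.15 ± 0.05) without A101D replicate 1 (0.09) and without the low-count filter (0.12). EZH2 differed by -0.92 ± 0.04 in replicates 1-4 and by 0.62 ± 0.04 in replicates 5-8 (adjusted p = 7.28e-24 and 5.08e-16).

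Members with the largest differences between the lines were mostly lower in MeWo. In replicates 1-4 these were KDM5A (-1.41 ± 0.04), KMT2C (-1.37 ± 0.04), KDM7A (-1.23 ± 0.07) and KDM1B (-1.0 ± 0.05), and on the other side NSD2 (0.98 ± 0.03) and KMT5B (0.94 ± 0.05). In replicates 5-8 they were KDM7A (-2.82 ± 0.06), NSD2 (1.74 ± 0.03), KDM5A (-1.41 ± 0.04), SETDB2 (1.35 ± 0.04), KMT2C (-1.29 ± 0.04) and KDM4A (-1.20 ± 0.04). The widest gap was that of KDM7A in replicates 5-8, 7.08-fold.

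By residue, all 8 H3K4 writers passed the test between lines over all libraries, 7 of them lower in MeWo (KMT2A -0.66 ± 0.05, KMT2B -0.38 ± 0.05, KMT2C -1.33 ± 0.05, KMT2D -0.24 ± 0.05, KMT2E -0.66 ± 0.06, SETD1B -0.28 ± 0.08 and SETD7 -0.52 ± 0.11), and SETD1A alone was higher (0.27 ± 0.05), against 41.0% of all genes lower and 37.5% higher. SETD1B did not pass the test in replicates 1-4 alone. The H3K4 erasers KDM1B, KDM5A and KDM5B were lower and KDM1A higher. Of the H3K9 writers, SETDB2, SUV39H2, EHMT1 and PRDM2 were higher and none was lower. Of the H3K36 writers, NSD2, NSD3, SMYD2 and SETD2 were higher and ASH1L was lower. The H4K20 writers KMT5A and KMT5B were higher, by 0.70 ± 0.04 and 0.60 ± 0.14. The call for KDM5B (-0.18 ± 0.07) was lost without A101D replicate 8 or MeWo replicate 3, 4 or 7.

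**Figure D5:**
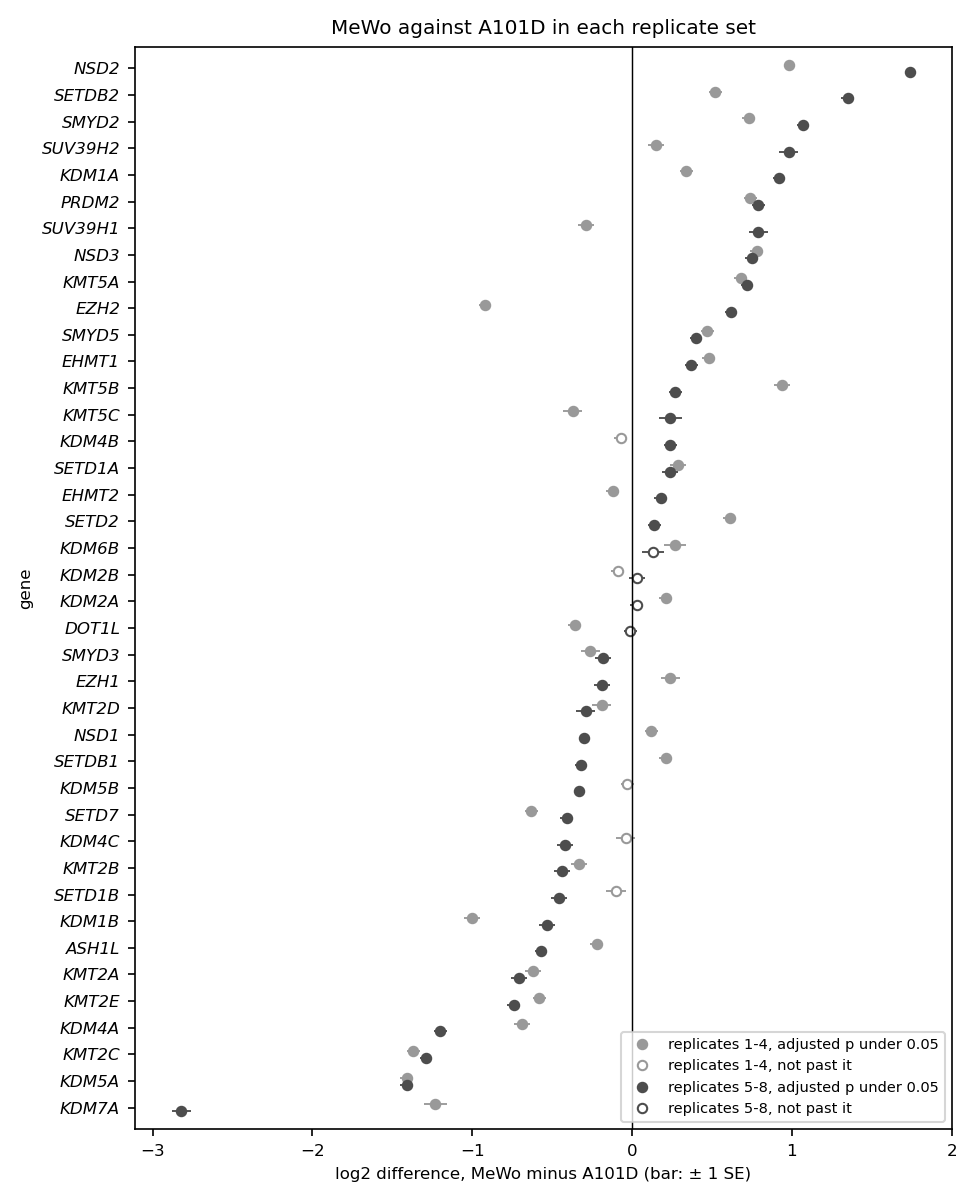
Log2 difference between MeWo and A101D (horizontal axis, with 1 SE) for each member in replicates 1-4 (light) and 5-8 (dark); filled points have an adjusted p under 0.05. KDM5A and KMT2C have nearly the same value in both sets, and the points of EZH2 and SUV39H1 lie on opposite sides of 0.

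Levels of different members were compared per length, as CPM per kilobase of annotated exon (GENCODE v29, all isoforms merged). KDM1A had the highest mean in all 4 sets, with 27.5 in A101D replicates 1-4, 16.4 in A101D replicates 5-8, 34.9 in MeWo replicates 1-4 and 30.9 in MeWo replicates 5-8. KMT2A had the lowest in all 4, from 1.02 to 1.67, with the longest merged exons of any member (31305 bases). Merged exons can be longer than the transcript a cell makes, so this rank and the others here depend on the length used. EZH2 was next to KDM1A in A101D replicates 1-4 with 18.7 CPM per kilobase (18.7 to 18.9 over libraries), followed by EHMT2 with 13.1. In A101D replicates 5-8 EZH2 had 5.47 and lay below EZH1 with 7.31, and KDM7A had 8.79 to 10.8 over libraries against 2.88 to 3.23 in the earlier set. SMYD5 was next to KDM1A in both MeWo sets, with 16.5 and 16.9, and KMT5A was after it with 14.2 and 14.3.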

How the data were processed

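Per the labels, the 16 libraries were prepared with a stranded kit for total RNA. For each line the authors deposited a table in which each cell joins an Ensembl identifier and a whole-number read count, and both were separated before use. The deposited counts were not normalized. The submitters' processing notes name Trimmomatic 0.39-1, STAR 2.7.1a, featureCounts 2.0.0 and GRCh38, without their role or order. Neither annotation nor strandedness of the counting is given in the sources used here. Whether reads of overlapping or antisense genes were kept apart is therefore not known. Symbols matched 60357 of 60676 identifiers, and positions are those of GENCODE v29 (GRCh38).

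Tested genes reached 0.298 CPM (10 counts at the median depth) in 4 or more libraries and a total of 15 counts. CPM values use library sizes multiplied by TMM factors (trimmed mean of M-values). Because the joined cells do not pass as counts, limma-voom (limma 3.58.1, R 4.3.3, robust moderation, Benjamini-Hochberg over 21569 genes, threshold 0.05) was used. Lines were compared over all libraries, and in 1 model of line by replicate set for the rest. Log2 differences are given with their SE. The step was tested on simulated data with few changed genes and the same spread setting for all genes. A shift as wide as that in A101D was not tried. Every pair of libraries of a set differed by more than sampling noise (chi-square per degree of freedom 1.92 to 7.78).

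The members, gene lists and comparisons were chosen with earlier results of these data known. All 40 members are named. Values per library are given for those with a log2 change of at least 1 between sets or in the difference of changes, for the 6 largest line differences in each set and for the related pairs, and also for KDM1A, which was added after its values were seen. For the partner lists, the further demethylases and the proliferation markers the 3 largest differences in A101D are named, and cell type markers are given as sums with the genes that dominate or define them. JARID2, as the single exception of its list, was named after its value was seen. CBX5, RBBP5 and NCOA6, which went against the named genes of their lists, were also named after their values were seen. The planned protein sequences were not used here.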

Additional observations from a re-analysis of the deposited data

Results flagged for a closer look

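In 7 of 160 groups of 4 libraries (40 genes in 4 sets), 1 library stood far from the other 3 by Dixon's ratio, where chance flags about 1 in 20 groups, or 8. KMT2A reached 34.7 CPM in MeWo replicate 8 against 30.8 to 31.4 in replicates 5 to 7, and KMT2B reached 76.6 CPM in MeWo replicate 4 against 64.7 to 66.4 in replicates 1 to 3. SUV39H1 was low in A101D replicate 4, at 24.2 CPM, and SUV39H2 was low in A101D replicate 1, at 22.7 CPM. EHMT1 was high in A101D replicate 1, by little (51.3 CPM against 50.6 to 50.7). ASH1L reached 156.0 CPM in A101D replicate 5, and KDM4A reached 26.9 CPM in MeWo replicate 2 against 24.4 to 24.6 in replicates 1, 3 and 4.

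The change from replicates 1-4 to 5-8 differed between the lines for 26 members by the interaction test. It did so for 49.1% of all genes and 60.1% of those kept at a 1 CPM minimum. The change in MeWo minus that in A101D was positive for 13 members, namely 1.54 (log2) for EZH2, 1.08 for SUV39H1, 0.84 for SUV39H2, 0.84 for SETDB2, 0.76 for NSD2, 0.61 for KMT5C, 0.57 for KDM1A, 0.47 for KDM1B, 0.35 for DOT1L, 0.34 for SMYD2, 0.31 for KDM4B, 0.30 for EHMT2 and 0.22 for SETD7. It was negative for 13 members, namely -1.59 for KDM7A, -0.67 for KMT5B, -0.54 for SETDB1, -0.51 for KDM4A, -0.48 for SETD2, -0.43 for EZH1, -0.42 for NSD1, -0.38 for KDM4C, -0.35 for SETD1B, -0.35 for ASH1L, -0.30 for KDM5B, -0.18 for KDM2A and -0.16 for KMT2E. What separates the replicate sets is not labelled. All 12 proliferation markers had a more positive change in MeWo, against 25.9% of all genes, and their part was not tested.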

How the results depend on the processing

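Results were recomputed with library totals, upper-quartile or median-of-ratios factors, without the low-count filter, at a 1 CPM minimum, with limma-trend, a threshold of 0.01, the replicate number as a block and leaving out each library. At the 0.01 threshold 7 of 165 member results that passed the test at 0.05 no longer did. In 3757 refits at 0.05 of these results (scaling, filters, limma-trend, block, libraries left out), 3700 kept direction and side, 57 (in 15 results) lost the call and 0 changed sign. Counts of members in A101D, between lines and for the difference of changes moved by less than 1.5 times. In MeWo the 4 higher members became 2 at the threshold of 0.01 and 2 without a low-count filter, and the 3 lower became 6 with median-of-ratios factors. Leaving out a library gave 2 to 5 higher (2 without MeWo replicate 1, 3, 4, 6 or 8) and 3 to 6 lower in MeWo (6 without MeWo replicate 4, 5 without A101D replicate 8). Values that did not pass the test and changed sign were KDM5A in A101D (0.00 with median-of-ratios factors, 0.06 with upper-quartile factors, 0.09 with library totals, 0.00 at 1 CPM, and 0.01 and 0.00 without A101D replicates 2 and 7), KMT5A in A101D (0.05 with upper-quartile factors, 0.07 with library totals, 0.01 without A101D replicate 8), SUV39H1 in MeWo (-0.02 without MeWo replicate 7, up to 0.04 without replicate 6) and EZH1 between lines over all libraries (-0.06 to -0.00 without A101D replicate 1, 2, 3 or 4, of which -0.03 without replicate 1 and -0.04 without replicate 4). The KDM2A rise in A101D lost its call without the low-count filter (0.05). The cause of these changes was not tested. Without the filter 47564 genes entered both the test and the scaling factors. The median difference of all genes between the A101D sets then moved by -0.06 on the log2 scale.

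Whether replicate numbers pair the libraries of the 2 lines is not stated. Same-numbered libraries correlated by -0.03 to 0.08 in their deviations from set means and by 0.03 to 0.14 in those from line means. Among the 4 libraries of the matching set, 6 of 16 correlated best with their own number. Such correlations cannot show how the libraries were made. With the replicate block, 15 members were higher and 16 lower over all libraries, 18 and 19 in replicates 1-4, 18 and 18 in replicates 5-8, and 13 and 13 for the difference of changes. No block could be fitted within a line, where the sets share no number.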
